A study of Gallus gallus with 13 samples.

Results

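The genes described here are COL6A1, COL6A2 and COL6A3, which encode the α1, α2 and α3 chains of collagen VI. They were found by their symbols in the annotation of the array. The 3 genes are read by 7 probe sets, 3 for COL6A1 and 2 each for COL6A2 and COL6A3. All 7 passed the filter on low signal, and the 3 genes are among 11498 named genes that were tested.

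Collagen VI is an extracellular matrix protein made by fibroblasts and other mesenchymal cells. One α1, one α2 and one longer α3 chain fold into a triple helix inside the cell. The trimers pair, the pairs assemble again, and the product is secreted to form beaded microfilaments around cells. In humans, mutations in any of the 3 genes cause collagen VI muscular dystrophies.

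The RNA came from primary fibroblasts of White Leghorn chicken embryos at day 10, cultured at early passage in medium with 5% calf serum. Doubly arrested cells (contact-inhibited and serum-starved, 3 arrays) were confluent when their medium was changed to one without serum. Serum-starved cells (3 arrays) went into the same serum-free medium while still growing. Contact-inhibited cells (4 arrays) were confluent and received fresh medium with serum, and cycling cells (3 arrays) were collected in log phase. No group carries a transgene or a genetic change. All 4 groups are mixed primary cells, and how long the arrested cells were held is not given in the sources used here. The labels name biological replicates without saying whether each came from its own embryos, so a p-value measures the spread between these arrays, which may be technical.

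Median signal over all probe sets lay between 50.5 and 66.5 on the 13 arrays and mean signal between 337 and 370. Cycling replicate 3 had the lowest median and the highest ratio of 3′ to 5′ actin signal, 2.41 against 1.27 to 1.89 on the other arrays. A level averaged over 22 probe sets of the female-specific W chromosome also differed. It was 6.11 to 6.16 on the log2 scale on the doubly arrested arrays, 5.98 to 6.66 on the serum-starved, 6.28 in contact-inhibited replicate 1 and 7.19 to 7.30 in the other contact-inhibited arrays, and 7.07 to 7.12 in cycling cells. Apart from contact-inhibited replicate 1, every array with serum was above every array without it. What lies behind this level and serum removal can thus not be fully told apart. Results on the chains are therefore also given with this level as a covariate and without cycling replicate 3 and contact-inhibited replicate 1. Of the 16 fibroblast markers listed, 15 are on the array and all 15 passed the filter. Type I collagen chain COL1A1 (14423 to 21208) and vimentin, VIM (13349 to 15527), were bright on every array, whereas the receptor PDGFRA was dim (24.7 to 76.8).

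COL6A1 was brightest in contact-inhibited cells and dimmest in cycling cells. Probe sets are numbered within a gene, and probe set 1 of each gene, the brightest by mean log2 value, represents it in comparisons between genes. The signal of COL6A1 probe set 1 was 7995, 8594 and 8456 in doubly arrested cells, 6270, 6783 and 6223 in serum-starved cells, 10784, 10580, 11714 and 11766 in contact-inhibited cells, and 2611, 2695 and 2421 in cycling cells. The arrays of each group lay together and no 2 groups overlapped. COL6A1 probe set 2, whose suffix (x) marks probes that may also match other transcripts, kept the same order of groups. It gave 8860, 8844 and 8397 in doubly arrested cells, 6634, 5701 and 6647 in serum-starved cells, 13595, 14393, 12076 and 12124 in contact-inhibited cells, and 1969, 2427 and 1531 in cycling cells.

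COL6A1 probe set 3 was dimmer and more scattered. It gave 999.3, 748 and 331 in doubly arrested cells, 518, 621 and 817 in serum-starved cells, 2312, 3665, 2160 and 1734 in contact-inhibited cells, and 146, 199 and 3.06 in cycling cells. The contact-inhibited arrays were again above all others and the cycling arrays below all others, while the doubly arrested and serum-starved arrays overlapped. The value of 3.06 belongs to cycling replicate 3, the array with the high actin ratio.

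COL6A2 had the same order of groups on its bright probe set 1. Its signal was 7426, 8198 and 8380 in doubly arrested cells, 6984, 6923 and 7297 in serum-starved cells, 12757, 11983, 10455 and 10643 in contact-inhibited cells, and 2269, 2809 and 2439 in cycling cells. All contact-inhibited arrays were above and all cycling arrays below the rest, and the doubly arrested arrays lay narrowly above the serum-starved ones. COL6A2 probe set 2 was dim. It gave 198, 209 and 146 in doubly arrested cells, 167, 207 and 187 in serum-starved cells, 292, 241, 254 and 211 in contact-inhibited cells, and 201, 180 and 155 in cycling cells. Here only the contact-inhibited arrays stood above the others, narrowly, and the remaining 3 groups overlapped.

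COL6A3, the gene of the α3 chain, was also highest in contact-inhibited cells. Its bright probe set 1 gave 6043, 5961 and 7717 in doubly arrested cells, 7584, 7498 and 6409 in serum-starved cells, 12192, 11589, 11407 and 12515 in contact-inhibited cells, and 3601, 2996 and 2129 in cycling cells. The doubly arrested and serum-starved arrays overlapped, all contact-inhibited arrays lay above them, and all cycling arrays below. Cycling replicate 3 held the lowest value. COL6A3 probe set 2 was near the filter, which lay at a signal of 22.7. Its values were 27.1, 16.04 and 29.6 in doubly arrested cells, 35.3, 40.1 and 29.7 in serum-starved cells, 64.6, 184.5, 76.3 and 122.2 in contact-inhibited cells, and 34.7, 23.1 and 10.2 in cycling cells. The contact-inhibited arrays stood above all others, the doubly arrested arrays lay just under the serum-starved ones, and the cycling arrays overlapped with both.

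**Figure D1:**
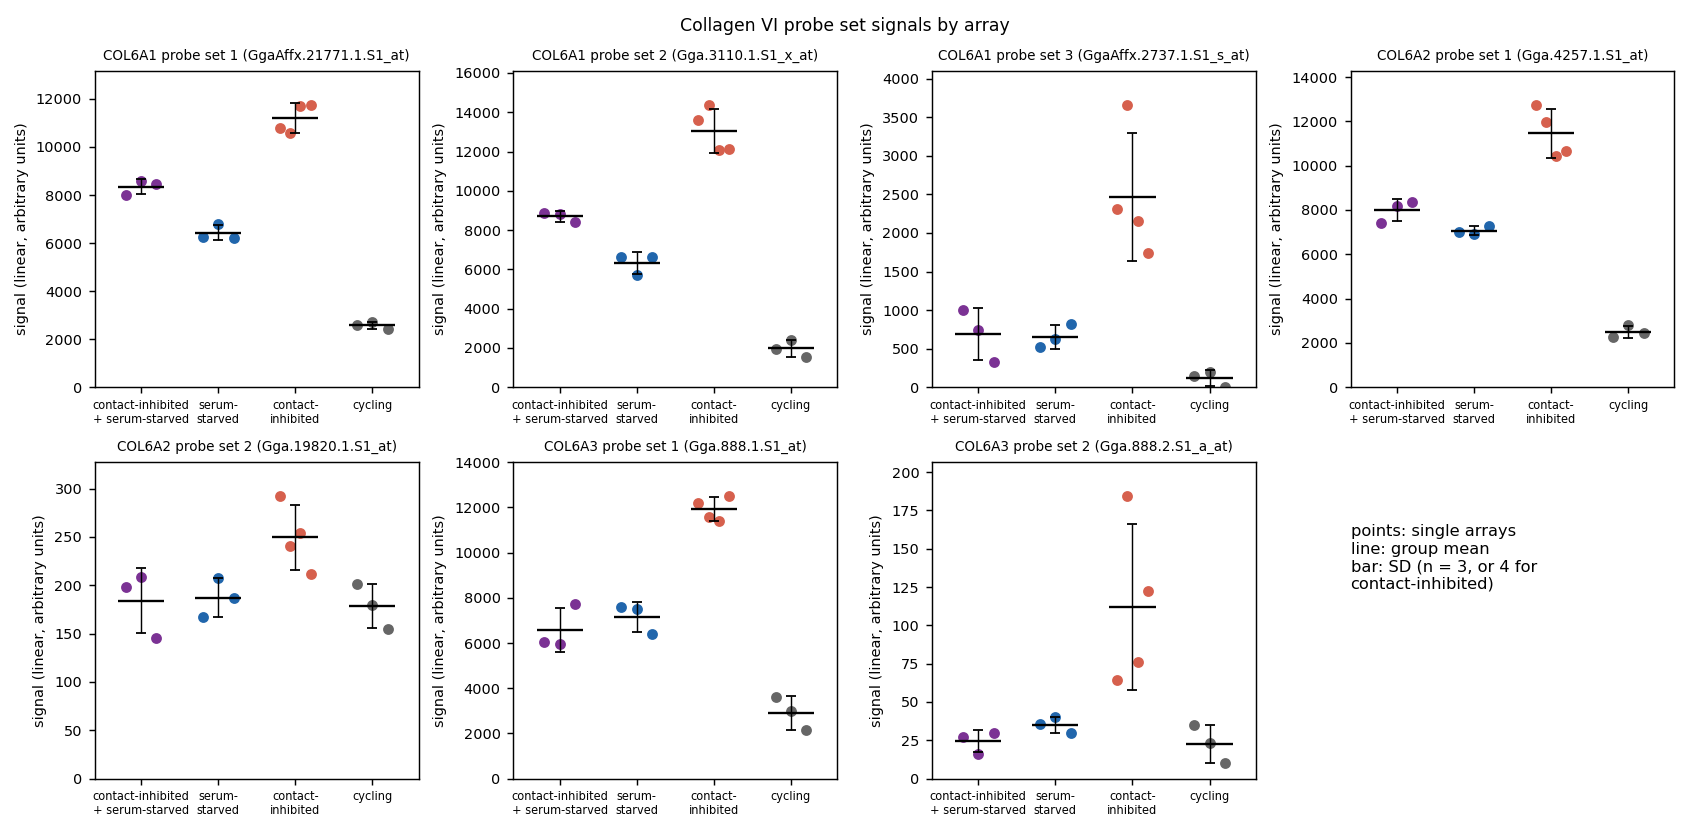
Signal (linear, arbitrary units) of the 7 collagen VI probe sets on each of 13 arrays, by culture group. Points are arrays, lines are group means and bars are SD (n = 4 for contact-inhibited cells, 3 for the others); on every probe set the contact-inhibited arrays lie above all others, and on the 5 probe sets other than COL6A2 probe set 2 and COL6A3 probe set 2 the cycling arrays lie below all others.

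In contact-inhibited cells the mRNA signal on probe set 1 of each chain was 4.10 to 4.57 times that of cycling cells. The other probe sets gave ratios of 6.60 and 21.3 (COL6A1 probe sets 2 and 3), 1.40 (COL6A2 probe set 2) and 4.94 (COL6A3 probe set 2). On the bright probe sets, COL6A1 averaged 11211 ± 617 in contact-inhibited cells (SD, n = 4) and 2576 ± 140 in cycling cells (SD, n = 3), a ratio of 4.35. COL6A2 averaged 11460 ± 1101 and COL6A3 11926 ± 517 in contact-inhibited cells, against 2506 ± 276 and 2909 ± 740 in cycling cells, with ratios of 4.57 and 4.10. In bulk RNA, more cells that make a transcript and more transcript per cell cannot be told apart. On the log2(signal + 16) scale, where the offset understates changes of dim probe sets, the changes were 2.11 ± 0.07 (SE) for COL6A1, 2.19 ± 0.09 for COL6A2 and 2.06 ± 0.15 for COL6A3. Their adjusted p-values were 3.08e-10, 2.93e-09 and 4.69e-07 in the limma fit over all 28270 tested probe sets.

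All 7 probe sets passed the test as higher in contact-inhibited cells, where 18.8% of all tested probe sets did so, and on all 7 the 2 groups did not overlap, as on 20.7% of all with contact-inhibited cells higher. COL6A1 probe sets 2 and 3 changed by 2.73 ± 0.13 and 4.78 ± 0.65, and COL6A3 probe set 2 by 1.68 ± 0.29. The size of the change on COL6A1 probe set 3 rests on cycling replicate 3: without that array it was 3.68. COL6A2 probe set 2 passed narrowly (0.45 ± 0.16, adjusted p = 0.0405), and leaving out any of 7 arrays took it past the threshold, up to an adjusted p of 0.126 without cycling replicate 3. Its call was also lost with arrays centred on their median (adjusted p = 0.109), quantile normalization (0.0622), no filter (0.0508), array weights (0.0658) and a fit of only the arrays compared (0.0746). Without cycling replicate 3 and contact-inhibited replicate 1 together, its change was 0.28 and the call was lost as well (adjusted p = 0.198). The median change over all tested probe sets was 0.07.

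Serum starvation of growing cells went with a smaller rise of the same chains. COL6A1 averaged 6425 ± 311 in serum-starved cells and 2576 ± 140 in cycling cells, 2.49 times as much. For COL6A2 the means were 7068 ± 201 and 2506 ± 276 (2.82 times), and for COL6A3 7164 ± 655 and 2909 ± 740 (2.46 times; SD, n = 3 each). On the log2 scale these were changes of 1.31 ± 0.07, 1.495 ± 0.10 and 1.32 ± 0.16 (SE; limma, adjusted p = 1.53e-07, 5.91e-07 and 8.41e-05).

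Of the 7 probe sets, 5 passed as higher in serum-starved cells, beside 10.1% of all tested, and the same 5 did not overlap with cycling cells, beside 20.6% of all. COL6A1 probe sets 2 and 3 were among them, with 1.69 ± 0.13 and 2.91 ± 0.69. The change on probe set 3 again depended on single arrays. It was 1.82 without cycling replicate 3, and its adjusted p was 0.0533 without serum-starved replicate 3, 0.109 with the W-linked covariate and 0.0732 in a fit of only the arrays compared. The dim probe sets of COL6A2 (0.07, 95% interval -0.30 to 0.43) and COL6A3 (0.45, -0.22 to 1.11) did not pass.

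Doubly arrested cells also had more of each chain than cycling cells, by unequal amounts. COL6A1 averaged 8349 ± 314 in doubly arrested cells and 2576 ± 140 in cycling cells, and COL6A2 8001 ± 507 and 2506 ± 276, ratios of 3.24 and 3.19. COL6A3 averaged 6574 ± 991 in doubly arrested cells and 2909 ± 740 in cycling cells, a ratio of 2.26 (SD, n = 3 each). The log2 changes were 1.69 ± 0.07, 1.67 ± 0.10 and 1.19 ± 0.16 (limma, adjusted p = 9.46e-09, 1.28e-07 and 0.000104). Again 5 of 7 probe sets passed as higher (17.5% of all tested) and the same 5 did not overlap with cycling cells (25.7% of all). COL6A1 probe set 3 was at 2.89 ± 0.69, and at 1.79 without cycling replicate 3. Its call was lost with the W-linked covariate (adjusted p = 0.106) and in a fit of only the arrays compared (0.0572).

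The 3 comparisons share the same cycling arrays and so do not stand apart from each other. Those 5 probe sets were higher in each of the 3 comparisons, as were 6.13% of all tested probe sets, but with the W-linked covariate COL6A1 probe set 3 was called in contact-inhibited cells alone. With the W-linked level as a covariate, the changes of the bright probe sets were 2.07 to 2.17 in contact-inhibited, 1.34 to 1.36 in serum-starved and 1.23 to 1.73 in doubly arrested cells. Without cycling replicate 3 and contact-inhibited replicate 1 they were 1.84 to 2.12, 1.117 to 1.48 and 0.99 to 1.66. All 9 of these changes passed the limma test in both settings, with adjusted p-values of at most 0.00636. Because the W-linked level nearly followed serum removal, its fit is a weak check of the serum-starved and doubly arrested changes. The same holds where these groups are compared with contact-inhibited cells.

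**Figure D2:**
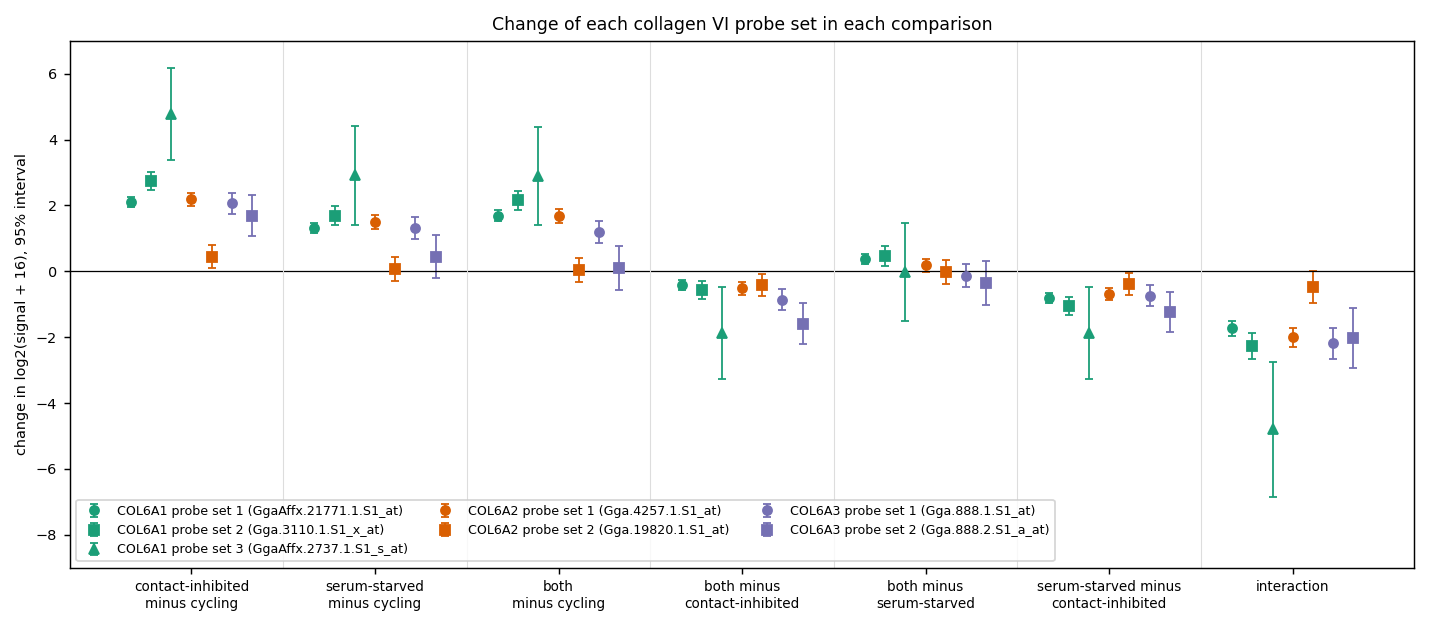
Change in log2(signal + 16) of each collagen VI probe set, with 95% intervals from the limma fit, in the 6 comparisons between groups and in the interaction of confluence and serum removal ("both" stands for contact-inhibited and serum-starved). The bright probe sets (circles) are above 0 against cycling cells and below 0 in the interaction, while COL6A1 probe set 3 has the widest intervals.

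Removing serum from confluent cells went with less of each chain. Relative to contact-inhibited cells, the mean signal of doubly arrested cells was 0.745 times for COL6A1, 0.698 times for COL6A2 and 0.551 times for COL6A3. As log2 changes these were -0.42 ± 0.07, -0.51 ± 0.09 and -0.87 ± 0.15 (limma, adjusted p = 0.000946, 0.00166 and 0.00123). Of the 7 probe sets, 5 passed as lower, beside 6.59% of all tested, and all 7 had every doubly arrested array below every contact-inhibited array, beside 13.5% of all. COL6A1 probe set 3 (-1.89, adjusted p = 0.0622) and COL6A2 probe set 2 (-0.42, adjusted p = 0.088) did not pass. COL6A1 probe set 3 did pass without cycling replicate 2 (adjusted p = 0.0398) or 3 (0.000792), with an offset of 64 (0.00944), with arrays centred (0.0432), with quantile normalization (0.0415), with array weights (0.000619) and in a fit of only the arrays compared (0.00357). It also passed without cycling replicate 3 and contact-inhibited replicate 1 together. COL6A2 probe set 2 passed with quantile normalization (0.0464). With the W-linked covariate, COL6A1 probe set 2 (-0.58, adjusted p = 0.0658) and COL6A3 probe set 2 (-1.08, adjusted p = 0.0982) lost the call and COL6A2 probe set 2 gained it (-0.69, adjusted p = 0.0481).

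Serum-starved cells were likewise below contact-inhibited cells. The ratios of mean signal were 0.573 for COL6A1, 0.617 for COL6A2 and 0.601 for COL6A3, and the log2 changes -0.80 ± 0.07, -0.69 ± 0.09 and -0.74 ± 0.15 (limma, adjusted p = 5.02e-06, 0.000153 and 0.00309). Here too 5 of 7 probe sets passed as lower (7.5% of all tested) and all 7 were fully below the contact-inhibited arrays (13.7% of all). COL6A1 probe set 3 did not pass (-1.86, adjusted p = 0.0609), but passed without cycling replicate 2 (0.0381) or 3 (0.000714), with an offset of 64 (0.00860), with arrays centred (0.0402), with quantile normalization (0.0433), with array weights (0.000941) and in a fit of only the arrays compared (0.000545). It passed as well without cycling replicate 3 and contact-inhibited replicate 1 together. With the W-linked covariate, COL6A3 probe set 2 was at -0.78, against -1.24 without it, and lost the call (adjusted p = 0.199), and COL6A2 probe set 2 gained it (-0.62, adjusted p = 0.04997).

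Between doubly arrested and serum-starved cells the chains differed little. COL6A1 was higher in doubly arrested cells by 0.38 ± 0.07 on its bright probe set (adjusted p = 0.032), the 1 of 7 probe sets that passed in either direction, beside 0.962% of all tested. That call was lost on leaving out any of 7 single arrays, with adjusted p-values of up to 0.152. COL6A2 (0.18, 95% interval -0.03 to 0.39) and COL6A3 (-0.13, -0.47 to 0.21) did not pass on their bright probe sets. Groups did not overlap on 4 of the 7 probe sets. COL6A1 probe sets 1 and 2 and COL6A2 probe set 1 were higher in doubly arrested cells, as were 12.7% of all tested without overlap, and COL6A3 probe set 2 was lower, as were 12.6% of all.

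The interaction, the effect of serum removal in confluent cultures minus its effect in growing cultures, was negative for every chain. For COL6A1, serum removal went with -0.42 in confluent and 1.31 in growing cultures, an interaction of -1.74 ± 0.10 on the log2 scale. For COL6A2 the effects were -0.51 and 1.495, with an interaction of -2.01 ± 0.13, and for COL6A3 -0.87 and 1.32, with -2.19 ± 0.21 (limma, adjusted p = 3.87e-07, 1.29e-06 and 3.8e-05). The 2 single changes from cycling cells summed to 3.43, 3.68 and 3.39 for the 3 chains, whereas the doubly arrested cells were at 1.69, 1.67 and 1.19. Of the 7 probe sets, 6 passed with a negative interaction, beside 4.85% of all tested, and COL6A2 probe set 2 did not (-0.48, adjusted p = 0.206). Those higher in both singly arrested groups with a negative interaction were 5 of 7 and 2.79% of all. The interactions of the bright probe sets were -2.19 to -1.74 with the W-linked covariate and -1.97 to -1.71 without the pair of arrays named above. On average the W-linked level differed by nearly the same amount with serum removal in confluent and in growing cultures. Such a covariate could hardly move an interaction, so its fit is no check here. The arrays were not scaled further here, and centring each on its median moved the median interaction of all probe sets to 0.07, against -0.07 without it.

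**Figure D3:**
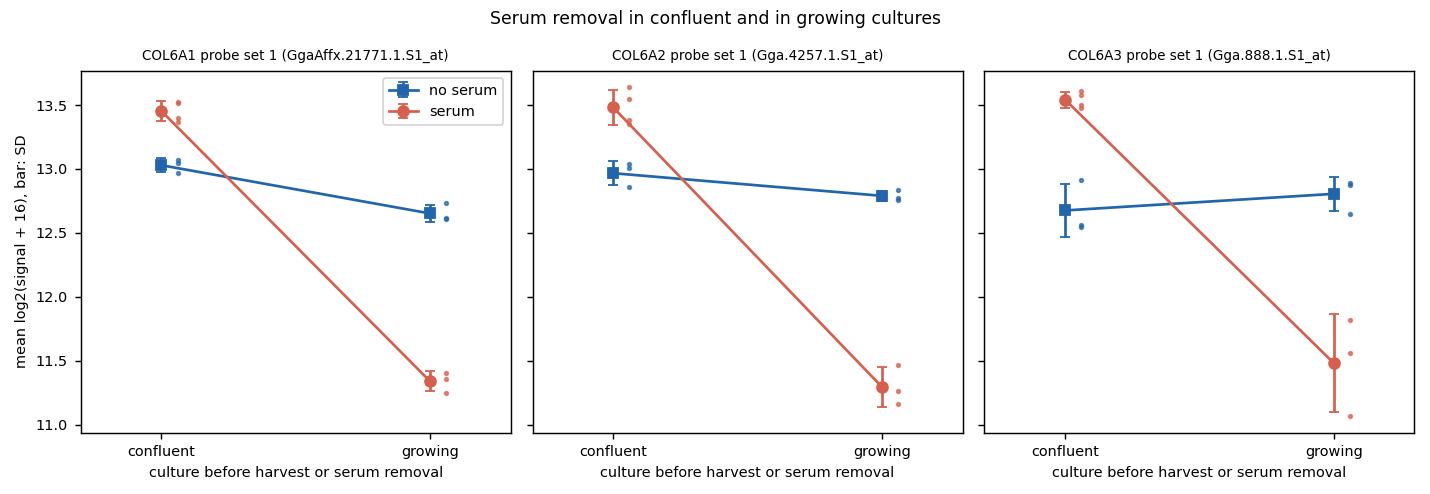
Mean log2(signal + 16) ± SD of the bright probe set of each chain in confluent and growing cultures, without serum (blue squares) and with serum (red circles), with single arrays as small points. The lines cross: without serum the signal is lower in confluent cultures and higher in growing ones.

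The chains were then set against each other on the same array, which cancels any scaling of the array. Because different probe sets bind with different strength, only the change of such a difference between groups can be read. Even that change need not be one of chain proportion, since probe sets of 1 gene can differ in it. COL6A1 probe sets 1 and 2 changed by 2.11 and 2.73 from cycling to contact-inhibited cells. COL6A3 minus COL6A1 on the log2 scale was lowest in doubly arrested cells, with a mean of -0.35 ± 0.20 (SD, n = 3), against 0.15 ± 0.12 in serum-starved cells (n = 3), 0.09 ± 0.09 in contact-inhibited cells (n = 4) and 0.14 ± 0.32 in cycling cells (n = 3). The doubly arrested arrays, at -0.53 to -0.13, lay below all serum-starved and contact-inhibited arrays and overlapped with the cycling arrays, at -0.18 to 0.46. An exact permutation test of the 4 group means over all 1201200 assignments of arrays gave p = 0.0311, and 0.0933 after adjustment over the 3 pairs of chains. It did not pass, but did so without cycling replicate 3 (adjusted p = 0.0224).

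COL6A3 minus COL6A2 had a similar order, with -0.29 ± 0.17 in doubly arrested, 0.02 ± 0.18 in serum-starved, 0.06 ± 0.14 in contact-inhibited and 0.19 ± 0.44 in cycling cells (exact permutation p = 0.180, adjusted 0.270). Without cycling replicate 3 the adjusted p was 0.0339. COL6A2 minus COL6A1 had group means between -0.06 and 0.14 (exact permutation p = 0.387, adjusted 0.387), and the largest gap between 2 group means was 0.20. When each gene was given as the mean of all its probe sets, that gap became 1.89 (adjusted p = 7.5e-05), since COL6A1 probe sets 2 and 3, with their larger changes, and COL6A2 probe set 2, with its smaller ones, then entered. COL6A1 probe set 2 was nearly as bright as probe set 1 (mean log2 value 12.66 against 12.68). From cycling to contact-inhibited cells it changed by 2.73, against 2.11 on probe set 1 and 2.19 on COL6A2 probe set 1. The difference with COL6A1 probe set 2 in place of probe set 1 was not tested.

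**Figure D4:**
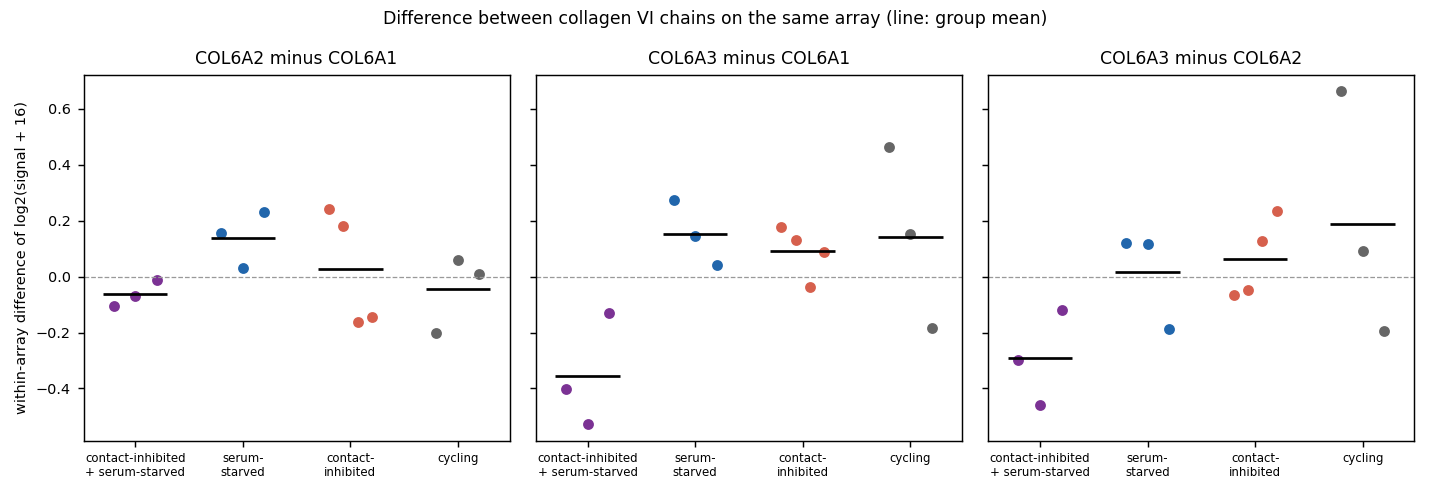
Difference of log2(signal + 16) between the bright probe sets of 2 chains on the same array, by group. Points are arrays and lines group means; in both panels with COL6A3 the doubly arrested arrays have the lowest mean, and the cycling arrays are the most spread.

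Over the 13 arrays the bright probe sets correlated at r = 0.984 for COL6A1 with COL6A2 and at r = 0.945 for COL6A3 with either. These values mostly describe the shared order of the groups. Once each group's mean was removed, r was -0.17 for COL6A1 with COL6A2, 0.47 for COL6A1 with COL6A3 and -0.02 for COL6A2 with COL6A3, over arrays that share signal scale and RNA. Among 11497 other genes, COL6A1 had the highest r with COL6A2, and COL6A2 was the fifth highest for COL6A1. For COL6A3, COL6A1 ranked 10 and COL6A2 ranked 12, while COL6A3 ranked 39 for COL6A1 and 37 for COL6A2.

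Among the collagen genes on the array, 38 were tested, each by 1 probe set, the brightest. In contact-inhibited against cycling cells, COL6A2, COL6A1 and COL6A3 ranked 3, 4 and 5 by log2 change, after COL15A1 (2.52) and COL14A1 (2.28). COL15A1 is a basement membrane zone collagen and COL14A1 binds the surface of fibrils. In serum-starved cells the chains ranked 2, 3 and 4, after COL8A1 (1.91), a short-chain collagen. In doubly arrested cells COL6A1 and COL6A2 ranked 2 and 3, after COL8A1 (1.96), and COL6A3 ranked 9. Ranked by the interaction from the highest, the chains were at 34 (COL6A1), 37 (COL6A2) and 38 (COL6A3) of 38.

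Of the 35 other collagen genes, 18 passed as higher and 2 as lower in contact-inhibited against cycling cells, with a median change of 0.41, beside 18.8% and 16% of all tested probe sets. In serum-starved cells 10 were higher and 1 lower (median 0.22), beside 10.1% and 6.53% of all, and in doubly arrested cells 11 were higher and 1 lower (median 0.28), beside 17.5% and 12.1%. Over all tested probe sets the medians were 0.07, 0.05 and 0.05. The lowest in all 3 comparisons was the cartilage collagen COL2A1, with -3.52 ± 0.12, -3.87 ± 0.12 and -3.78 ± 0.12, although 1 of its 4 other tested probe sets passed in the opposite direction in contact-inhibited and in doubly arrested cells. COL6A6, the gene of another collagen VI chain, gave 18.8 to 46.2 on one probe set and 0.88 to 9.09 on the other over all 13 arrays, near or under the filter.

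**Figure D5:**
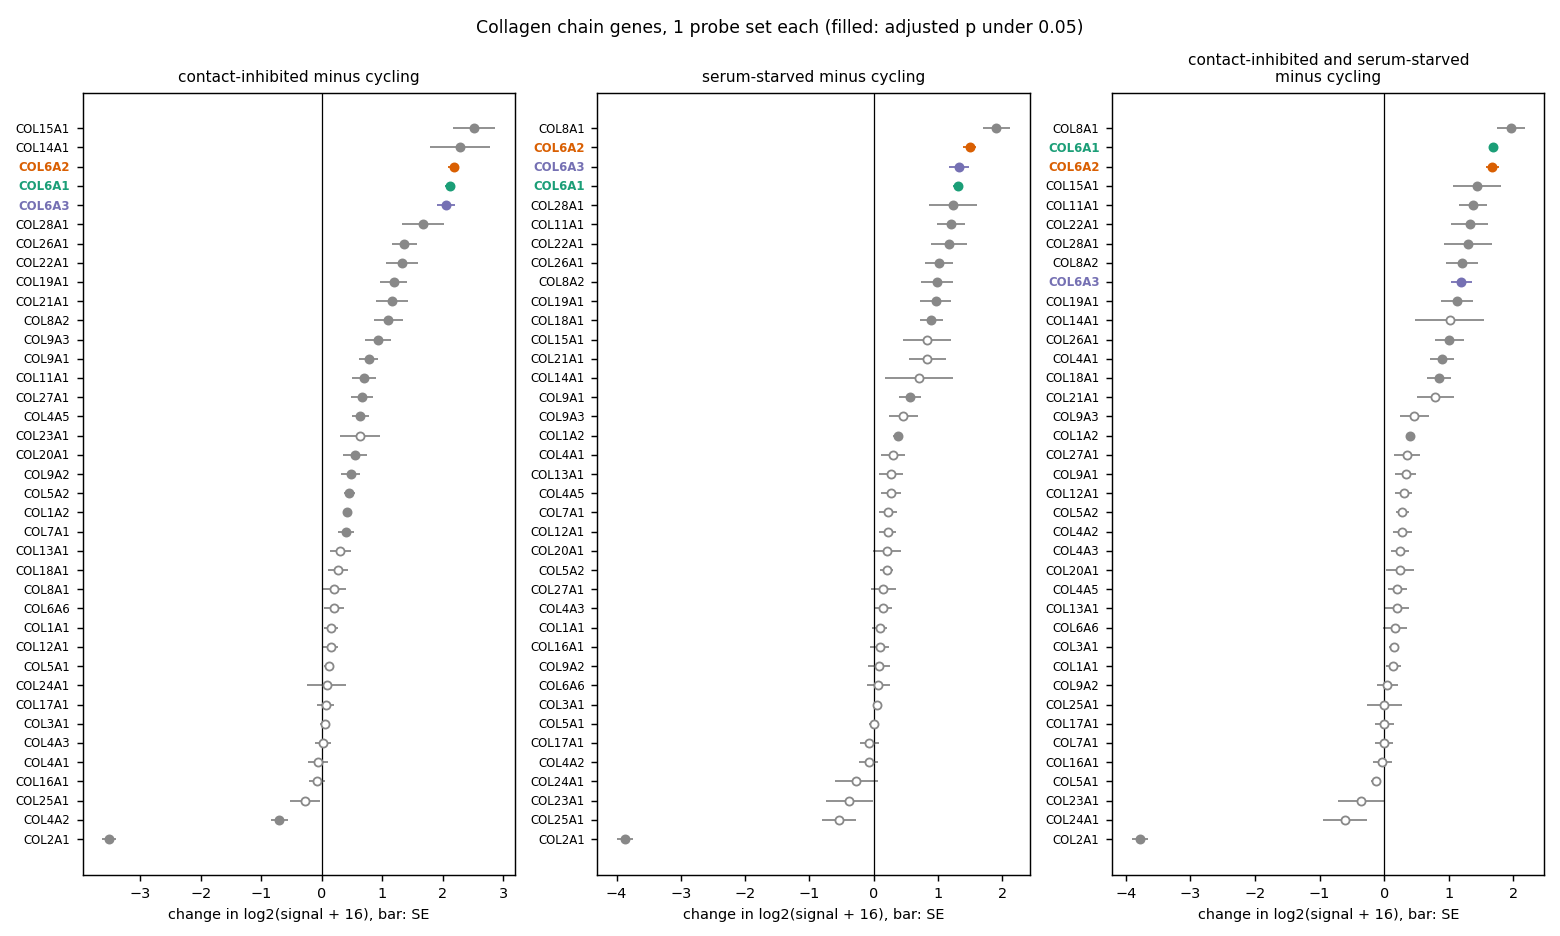
Change in log2(signal + 16) ± SE of the 38 tested collagen genes in each arrested group against cycling cells, sorted within each panel. Filled points have an adjusted p under 0.05; the coloured collagen VI chains rank 3 to 5, 2 to 4, and 2, 3 and 9.

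Enzymes and chaperones that mature collagen chains in the endoplasmic reticulum moved in both directions. Of 22 tested, 7 were higher and 5 lower in contact-inhibited cells relative to cycling cells, beside 18.8% and 16% of all tested probe sets. In serum-starved cells 5 were higher (10.1% of all), and in doubly arrested cells 6 were higher and 6 lower (17.5% and 12.1% of all), with medians of 0.01, -0.01 and -0.14 in the 3 comparisons. P4HA1, a catalytic subunit of prolyl 4-hydroxylase, rose by 1.33 ± 0.09 in contact-inhibited, 1.27 ± 0.10 in serum-starved and 1.31 ± 0.10 in doubly arrested cells. PLOD1, a lysyl hydroxylase, rose by 1.20 ± 0.10, 0.89 ± 0.11 and 1.03 ± 0.11 in the same order. Both had a negative interaction, -1.30 ± 0.13 for P4HA1 and -1.06 ± 0.15 for PLOD1. Of the 22 genes, 1 passed with a positive and 5 with a negative interaction, beside 1686 and 1371 of all 28270 tested probe sets. Unlike the chains, P4HA1 had nearly the same change from cycling cells in contact-inhibited (1.33) and doubly arrested cells (1.31). HSPA5, the endoplasmic reticulum chaperone BiP, was lower in contact-inhibited (-0.77 ± 0.11) and doubly arrested cells (-0.75 ± 0.11).

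Genes of collagen export from the endoplasmic reticulum also moved in both directions. Of 15 tested, 4 were higher and 2 lower in contact-inhibited cells against cycling cells, beside 18.8% and 16% of all tested probe sets. In serum-starved cells 1 was higher and 1 lower (10.1% and 6.53% of all), and in doubly arrested cells 4 were higher and 2 lower (17.5% and 12.1% of all). The medians were 0.27, 0.14 and 0.09. The COPII coat subunit SEC24D rose in the 3 groups by 0.82 ± 0.09, 0.36 ± 0.10 and 0.58 ± 0.10. Its coat partner SEC23B fell on its brightest probe set, with changes of -0.96, -0.49 and -0.87. The 1 other tested probe set of SEC23B did not pass in any of the 3 groups. SEC24D also had a negative interaction (-0.60 ± 0.14). Of its 4 other tested probe sets, 4 passed as higher in contact-inhibited, 0 in serum-starved and 2 in doubly arrested cells. None of them passed in the interaction. Of the 15 genes, 0 passed with a positive and 1 with a negative interaction, beside 1686 and 1371 of all 28270 tested probe sets.

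Of 13 tested receptors for collagen VI or other collagens, 1 was higher and 2 were lower in contact-inhibited cells against cycling cells, beside 18.8% and 16% of all tested probe sets. In serum-starved cells 3 were higher (10.1% of all) and in doubly arrested cells 2 were higher (17.5% of all). ITGA11, the α11 integrin subunit of a collagen receptor, rose by 1.04 ± 0.12, 0.72 ± 0.13 and 0.95 ± 0.13. ITGB3, the β3 integrin subunit, was lower in contact-inhibited cells (200 ± 146, n = 4) than in cycling cells (1187 ± 111, n = 3), a change of -2.67 ± 0.33. The 1 other tested probe set of ITGB3 did not pass there. In doubly arrested against contact-inhibited cells, where the chains were lower, 4 receptors were higher and 0 lower by the limma test, and 10.6% of all tested probe sets were higher. They were the anthrax toxin receptor ANTXR1, which binds collagen VI (0.74 ± 0.21), ITGB3 (1.83 ± 0.33) and the collagen receptor kinases DDR1 (0.99 ± 0.18) and DDR2 (0.67 ± 0.15). Each of these calls rests on 1 probe set. None of the other tested probe sets of these genes passed in this comparison (1 each for ANTXR1, ITGB3 and DDR2, and 3 for DDR1).

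Matrix proteins that bind or neighbour collagen VI were also mixed. Of 19 tested, 6 were higher and 4 lower in contact-inhibited cells against cycling cells, beside 18.8% and 16% of all tested probe sets. In each of the serum-starved and doubly arrested groups 7 were higher and 2 lower, beside 10.1% and 6.53% of all in serum-starved cells and 17.5% and 12.1% in doubly arrested cells. Elastin, ELN, rose by 1.81 ± 0.24, 1.96 ± 0.26 and 1.77 ± 0.26 and had a negative interaction (-1.995 ± 0.36). The list did not share that sign: of the 19 genes, 4 passed with a positive and 3 with a negative interaction. Among all 28270 tested probe sets, 1686 and 1371 did so. Interactions in the list ran from -2.93 to 3.61. Nidogen 1, NID1, a basement membrane linker, fell in the 3 groups on its brightest probe set, with changes of -2.44, -2.71 and -3.04 on the log2 scale. Of its 2 other tested probe sets, 1 also passed as lower in doubly arrested cells, and neither passed in contact-inhibited or serum-starved cells. Biglycan, BGN, a small proteoglycan that binds collagen VI, was lower in serum-starved than in contact-inhibited cells (-2.29 ± 0.48), as was tenascin C, TNC (-1.81 ± 0.34).

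Among 10 tested proteases and related factors that process or degrade matrix, 3 were higher and 3 lower in contact-inhibited cells against cycling cells, beside 18.8% and 16% of all tested probe sets. In serum-starved cells 3 were higher and 1 lower (10.1% and 6.53% of all), and in doubly arrested cells 3 were higher and 2 lower (17.5% and 12.1% of all). The gelatinase MMP2 rose by 0.94 ± 0.11, 1.31 ± 0.12 and 1.18 ± 0.12 against cycling cells, with a negative interaction of -1.07 ± 0.16. The membrane-type metalloproteinase MMP16 was at 2.42 ± 0.22 in contact-inhibited and 1.19 ± 0.23 in serum-starved cells, with an interaction of -2.27 ± 0.32. Of its 2 other tested probe sets, 2 also passed in contact-inhibited cells, 0 in serum-starved cells and 1 in the interaction. Of the 10 genes, 1 passed with a positive and 3 with a negative interaction, beside 1686 and 1371 of all 28270 tested probe sets. The tolloid-like protease TLL1 fell in the 3 groups, with changes of -2.40, -1.25 and -1.85 on the log2 scale.

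By correlation with the mean of the 3 bright probe sets over 13 arrays, the genes most like the chains among 11011 were SULT1E1 (r = 0.981), SGCD (0.977), OSBPL5 (0.976), TGM2 (0.975), EXFABP (0.973), ATP6V0E1 (0.969), BNIP3 (0.968) and ANGPTL5 (0.968). SGCD encodes δ-sarcoglycan and TGM2 a transglutaminase. TGM2 averaged 2554 ± 119 in doubly arrested, 1482 ± 154 in serum-starved, 3256 ± 259 in contact-inhibited and 208 ± 23.0 in cycling cells. The most opposite were MYL4 (r = -0.991), CHORDC1 (-0.986), PKP2 (-0.985) and ACTG2 (-0.984). MYL4, a myosin light chain gene, averaged 38.3 ± 5.09, 68.2 ± 9.86, 8.51 ± 2.58 and 941 ± 11.6 in the same order of groups. Of the 11011 genes, 176 had r of 0.9 or more and 312 of -0.9 or less. The most similar other collagen genes were COL26A1 (r = 0.901) and COL1A2 (0.892), a chain of collagen I.

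In the RefSeq gene order of assembly GRCg7b, COL6A1 and COL6A2 lie on the same chromosome with 1 gene and no protein-coding gene between them, and COL6A3 lies on that chromosome with 45 genes between it and COL6A1. Of the 12 protein-coding genes nearest COL6A1 and COL6A2, 7 were tested, of which 0 were higher and 1 lower in contact-inhibited relative to cycling cells by the limma test, beside 18.8% and 16% of all tested probe sets. In serum-starved cells 3 were higher (10.1% of all), among them the basement membrane collagen COL18A1 (0.90), the third gene before the pair. Of the 12 nearest COL6A3, 9 were tested, and 4 were higher and 2 lower in contact-inhibited cells, beside the same 18.8% and 16%. They included the immediate neighbour COPS8, a COP9 signalosome subunit, at -0.50, and the next gene CXCR7, a chemokine receptor, at 1.90. These neighbours were named after their values were seen.

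Markers of other cell types were read on the same arrays. The summed signal of the epithelial list (8 of 10 on the array, 6 past the filter) was 743 to 781 in doubly arrested, 945 to 1702 in serum-starved and 412 to 1105 in contact-inhibited cells, against 5155 to 5940 in cycling cells, opposite in direction to the collagen VI chains. Keratins made up most of it: KRT7 averaged 4102 and KRT14 1012 in cycling cells, whereas the defining markers CDH1 (8.96 to 18.7) and EPCAM (2.48 to 17.9) were under the filter on every array. Cartilage markers (9 of 10 on the array) summed to 9693 to 12149, 8269 to 8462 and 12233 to 14341 in the arrested groups in the same order and 14857 to 16109 in cycling cells, where COL2A1 made up 10319 on average. HAPLN1 also had its highest mean in cycling cells (1244). For contact-inhibited minus cycling cells, the limma test called 4 of 8 tested cartilage markers higher and 2 lower. Of all tested probe sets, 18.8% were higher and 16% lower. COMP had the group order of COL6A1, with means of 6012, 3959 and 9584 in the arrested groups and 2185 in cycling cells. ACAN averaged 336 in contact-inhibited cells and 14.9 to 17.0 in the other groups. COL9A1 and COL11A1 had their lowest means in cycling cells. The part of the epithelial and cartilage markers in the results on the chains was not tested.

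The fibroblast list summed to 123881 to 129456 in doubly arrested, 119195 to 128841 in serum-starved and 109687 to 119510 in contact-inhibited cells, against 100066 to 110712 in cycling cells. The contact-inhibited arrays, highest for collagen VI, were the lowest of the arrested arrays in this sum apart from an overlap with the serum-starved ones. Bright genes weigh most in the sum: FN1 averaged 17562, 17919 and 13971 in the arrested groups in that order. THY1 (3258, 2962 and 3991) went the other way. By the limma test, 5 of 15 were higher and 0 lower in doubly arrested than in contact-inhibited cells. Of all tested probe sets, 10.6% and 6.59% were. Macrophage and blood cell markers (7 of 11) summed to 929 to 1189, 639 to 845 and 783 to 976 in the arrested groups in that order and 559 to 613 in cycling cells. Most of that difference was CTSS (631, 304, 294 and 143 on average), and the defining marker PTPRC averaged 143, 172, 154 and 159. In contact-inhibited against cycling cells, 4 of the 7 were higher and 0 lower, beside 18.8% and 16% of all tested probe sets. LY86 (95.4 against 50.2) and SPI1 (66.5 against 39.3) had their highest means in contact-inhibited cells. Skeletal muscle markers (9 of 13) summed to 596 to 675 in contact-inhibited cells and 435 to 553 in the other groups. Endothelial markers (10 of 10) summed to 695 to 926 in contact-inhibited and 841 to 961 in doubly arrested cells. They summed to 1087 to 1127 in serum-starved and 1096 to 1226 in cycling cells. By the limma test of contact-inhibited against cycling cells, 1 of 7 muscle markers was higher and 0 lower. Of 9 endothelial markers, 0 were higher and 4 lower. The part of both lists in the results on the chains was not tested. Neural crest and glial markers (5 of 8) summed to 217 to 267 over all arrays. The defining markers MYOD1 (15.99 to 51.3), CDH5 (4.78 to 13.7) and SOX10 (53.8 to 95.2) were dim throughout.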

How the data were processed

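Total RNA of 13 cultures was labelled and hybridised to Affymetrix chicken arrays. The deposited values are probe set intensities on a linear scale, made by the authors with Affymetrix Expression Console 1.1 and PLIER, per the submitters' processing notes. Their background and scaling settings are not stated in the labels or headers read here.

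Here, 16 was added to each intensity and log2 taken. Of 37693 probe sets with a chicken ID, the 28270 at or above the 25th percentile of mean log2 value (signal 22.7) were tested in limma 3.58.1 (R 4.3.3): 4 group means over all 13 arrays, eBayes with trend, two-sided tests, Benjamini-Hochberg adjustment over all tested probe sets and a threshold of 0.05. Differences between chains within an array were tested by exact permutation in Python 3.11.15 with numpy 2.4.6. The fit was tested on simulated data. Arrays of the same group correlated at 0.941 to 0.993 over tested probe sets, and no pair was merged.

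Genes with several probe sets are represented by the one brightest on the log2 scale, and all probe sets of the 3 chains are given. From each gene list, up to 4 passing genes with the smallest adjusted p per comparison could be named. The 8 genes most and the 4 least correlated with the chains were named as well. The members and lists were chosen with earlier results of these data known. Alternatives were other offsets, scalings, filters and fits, a W-linked covariate, a replicate block and leaving out arrays. Gene order came from RefSeq (GRCg7b); promoter and protein sequences were not analysed here.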

Additional observations from a re-analysis of the deposited data

Results flagged for a closer look

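For 6 of the 7 collagen VI probe sets, the effect of serum removal differed between confluent and growing cultures by the interaction test in the limma fit. All 6 interactions were negative, beside 4.85% of all tested probe sets that passed with a negative interaction. On the log2 scale the interaction was -1.74, -2.27 and -4.80 for probe sets 1, 2 and 3 of COL6A1, -2.01 for probe set 1 of COL6A2, and -2.19 and -2.04 for probe sets 1 and 2 of COL6A3. The adjusted p-values lay between 3.87e-07 and 0.00845. The contact-inhibited group was the only one of over 3 arrays, and in it no single array stood apart from the other arrays in any of the 10 sets of values examined, which were the 7 probe sets and the 3 differences between chains. The rule used looks for 1 outlying array and cannot see 2 arrays apart from 2 others. COL6A2 minus COL6A1, for example, was 0.24 and 0.18 in replicates 1 and 2 but -0.16 and -0.14 in replicates 3 and 4.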

How the results depend on the processing

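On the bright probe sets, the calls of all 3 chains in the 3 comparisons with cycling cells, in both comparisons with contact-inhibited cells and in the interaction held, with the same direction, under every alternative run and on leaving out each array in turn. The higher COL6A1 signal of doubly arrested than serum-starved cells (0.38) did not hold: adjusted p was 0.123 without the eBayes trend and 0.0979 with the replicate block, and the change was 0.35 to 0.42 over the arrays left out. The number of collagen VI probe sets called there was 0 without the trend and with the block, 2 with array weights, in the fit of only the arrays compared and without cycling replicate 3 and contact-inhibited replicate 1, and 0 to 2 over the arrays left out. No pairing of arrays by replicate number was detected: deviations of same-numbered arrays from their group means had correlations of -0.293 to 0.382 (18 pairs), and the best match bore the same number for 4 of 12 arrays. Whether same-numbered cultures were prepared together is not stated in the labels. The replicate block changed 1 other call, that of COL6A1 probe set 3 in serum-starved minus contact-inhibited cells (-2.01, adjusted p = 0.0483). Of all probe sets, the block called 95 in doubly arrested minus serum-starved cells, against 272 without it.

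Changes that had not passed reversed sign, and none passed afterwards. For COL6A2 probe set 2, serum-starved minus cycling was -0.0525 centred, -0.0450 quantile normalized, -0.207 with the W-linked covariate and -0.0247 without the pair of arrays, and -0.0247 to 0.148 over the arrays left out. Its doubly arrested minus cycling change was -0.0651, -0.0855, -0.271 and -0.0579 in the same settings (-0.0584 to 0.179), and doubly arrested minus serum-starved was 0.0415 with array weights (-0.124 to 0.114). For COL6A3 probe set 2, doubly arrested minus cycling was -0.0047 centred, -0.36 with array weights and -0.16 without the pair (-0.16 to 0.31). For COL6A1 probe set 3, doubly arrested minus serum-starved was 0.16 with array weights (-0.35 to 0.42). The cause was not tested.

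The gap between group means of COL6A3 minus COL6A1 was 1.60 (adjusted p = 0.00354) with the mean of all probe sets and 0.66 without the pair of arrays, and 0.42 to 0.66 over the arrays left out. For COL6A3 minus COL6A2 it was 0.67 without the pair (0.35 to 0.67), and for COL6A2 minus COL6A1 1.89 with the mean of all probe sets. Without the pair, both differences with COL6A3 passed the exact permutation test, that of COL6A3 minus COL6A2 narrowly (adjusted p = 0.0480). Array weights called 7882, 12943, 10145, 3695, 9008 and 7138 probe sets in serum-starved and doubly arrested minus cycling, doubly arrested minus contact-inhibited and minus serum-starved, serum-starved minus contact-inhibited and the interaction, against 4713, 8390, 4867, 272, 5462 and 3057. The fit of only the arrays compared called 3070 and 863 in serum-starved minus cycling and doubly arrested minus serum-starved, the W-linked covariate 4830 and 596 in doubly arrested minus cycling and minus serum-starved, and removal of the pair 2019 and 4829 in doubly arrested minus serum-starved and the interaction. Over the arrays left out, counts were 2552 to 5922 in serum-starved minus cycling, 3171 to 6533 in doubly arrested minus contact-inhibited, 31 to 811 in doubly arrested minus serum-starved and 1908 to 3787 in the interaction. The median contact-inhibited minus cycling change over tested probe sets was -0.05 centred, against 0.07. With centring, 41.6%, 45.4% and 48.8% of calls were higher in contact-inhibited, serum-starved and doubly arrested than in cycling cells, against 54.1%, 60.8% and 59.1% without it, and 69.7% against 55.2% in the interaction. With quantile normalization the share of higher calls was 49.1% in doubly arrested minus cycling, and 36.9% against 50.4% in doubly arrested minus serum-starved. Signal near the filter limits COL6A3 probe set 2, and the W-linked and doubly removed fits leave fewer degrees of freedom.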
